A study of Mus musculus with 14 samples.

Results

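Corneal crystallins are soluble enzymes that the cornea stores in amounts far beyond what catalysis needs, and in the mouse the best known are aldehyde dehydrogenase 3A1 (Aldh3a1) and transketolase (Tkt). The genes described here are these 2 and 3 relatives of the first, Aldh1a1, Aldh1a7 and Aldh1a3. All 5 were listed by gene symbol, with earlier results of these data known. They make up 5 of the 18194 genes that a probe set names alone and 9 of 45101 probe sets on the array: 1 each for Aldh3a1, Aldh1a1 and Aldh1a7, and 3 each for Aldh1a3 and Tkt. All 9 passed the filter on low signals, and by the authors' values all 9 were called Present on every array of every group.

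Aldehyde dehydrogenases oxidize reactive aldehydes, among them those that ultraviolet light and lipid peroxidation produce in the exposed corneal epithelium. ALDH3A1 is the main enzyme of this kind in the mouse corneal epithelium. ALDH1A1 and ALDH1A3 also turn retinaldehyde into retinoic acid, the signalling form of vitamin A, and ALDH1A1 takes the place of ALDH3A1 as the corneal crystallin of some other mammals such as the rabbit. Transketolase works in the non-oxidative branch of the pentose phosphate pathway, whose oxidative branch supplies NADPH.

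RNA was measured on 14 Affymetrix mouse arrays, 1 per mouse, with both corneas of a mouse pooled. The groups were 4 Klf5CN and 4 WT samples at postnatal day 56 (PN56, young adults) and 3 Klf5CN and 3 WT samples at postnatal day 11 (PN11, shortly before the eyelids open). Klf5CN mice were Klf5 loxP/loxP, Le-Cre/-, and the controls called WT were littermates that carried the same Klf5 loxP/loxP alleles without Cre, on a mixed background. Le-Cre acts in tissue derived from the surface ectoderm, such as the lens and the epithelia of cornea and conjunctiva, so Klf5 is not deleted by it in the corneal stroma or endothelium. The comparisons ask how the loss of Klf5, a zinc finger transcription factor, changed corneal RNA at each age, and how the same RNA changed between the ages. Signal is the brightness of a probe set on a linear scale, every array having been scaled to a trimmed mean of 150. A probe set or gene is called higher or lower where it passed limma's test at an adjusted p of 0.05 with over 2-fold between the group means.

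The labels were borne out by Klf5 itself, whose probe set 1430255_at lay between 3.32 and 6.14 in the PN56 Klf5CN arrays and between 9.91 and 10.56 in the PN56 WT arrays on the log2 scale (3.67 to 4.19 against 8.91 to 9.21 at PN11). The tissue was corneal: Krt12, the keratin that marks corneal epithelium, had signals of 6226 to 15937 in the PN56 Klf5CN arrays and 6775 to 8112 in the PN56 WT arrays, with an adjusted p above the threshold at both ages. These signals were near the top of the scale, so they set no limit to a change in Krt12 RNA. Of 9 corneal epithelium markers, 0 passed at PN56 with all arrays kept. At PN11, Krtdap (log2 difference 1.58) and Epcam (1.19) were higher and Upk1b (-1.14) was lower. Leukocyte markers were higher for 6 of 8 genes at each age, with summed signals of 1831 to 5679.8 in PN56 Klf5CN and 711 to 1259 in PN56 WT, and of 5519 to 8738 in PN11 Klf5CN and 1939 to 2459 in PN11 WT. In pooled tissue, fewer cells of a type and less RNA per cell cannot be told apart. Among the Klf5CN arrays, 3 stood apart. The beta-actin signal ratio of the 3-prime to the 5-prime control probe set, a sign of RNA quality, was 3.07 on PN11 Klf5CN array 3 and 2.63 on PN56 Klf5CN array 4, against 1.17 to 1.39 on the other 12 arrays. The same ratio for Gapdh was 72.5 on PN11 Klf5CN array 3 and 1.57 on PN56 Klf5CN array 4. It was 0.687 to 0.845 on the other 12 arrays, so PN11 Klf5CN array 3 was by far the more extreme. On PN56 Klf5CN array 3, Klf5 was low (5.15 on the log2 scale), yet the array correlated with the PN56 WT arrays at a mean r of 0.965 and with its own group at 0.951.

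The members differed in kind. At PN56, Aldh1a1 and Aldh1a7 were lower in Klf5CN corneas, by 4.02-fold and 2.72-fold. Aldh3a1 passed at neither age. Tkt was lower by more than 4-fold at both ages on 1 of its 3 probe sets, and its brightest probe set did not pass at either age. Of the 3 Aldh1a3 probe sets, 1 was higher in Klf5CN corneas at PN11. Over the 9 probe sets, 0 were higher and 3 lower at PN56, where 5.67% of all 29416 tested probe sets were higher and 1.44% lower. With quantile normalization the calls at PN56 shifted to 1364 higher and 606 lower probe sets, against 1668 and 423 as deposited. At PN11, 1 was higher and 1 lower, where 2.77% of all were higher and 1.16% lower. With each gene read by its brightest probe set, 0 of 5 genes were higher and 2 lower at PN56 (7.10% and 1.63% of 13660 genes), and 0 were higher and 0 lower at PN11 (3.80% and 1.48%). The plot of all 9 probe sets shows the arrays behind these counts.

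**Figure D1:**
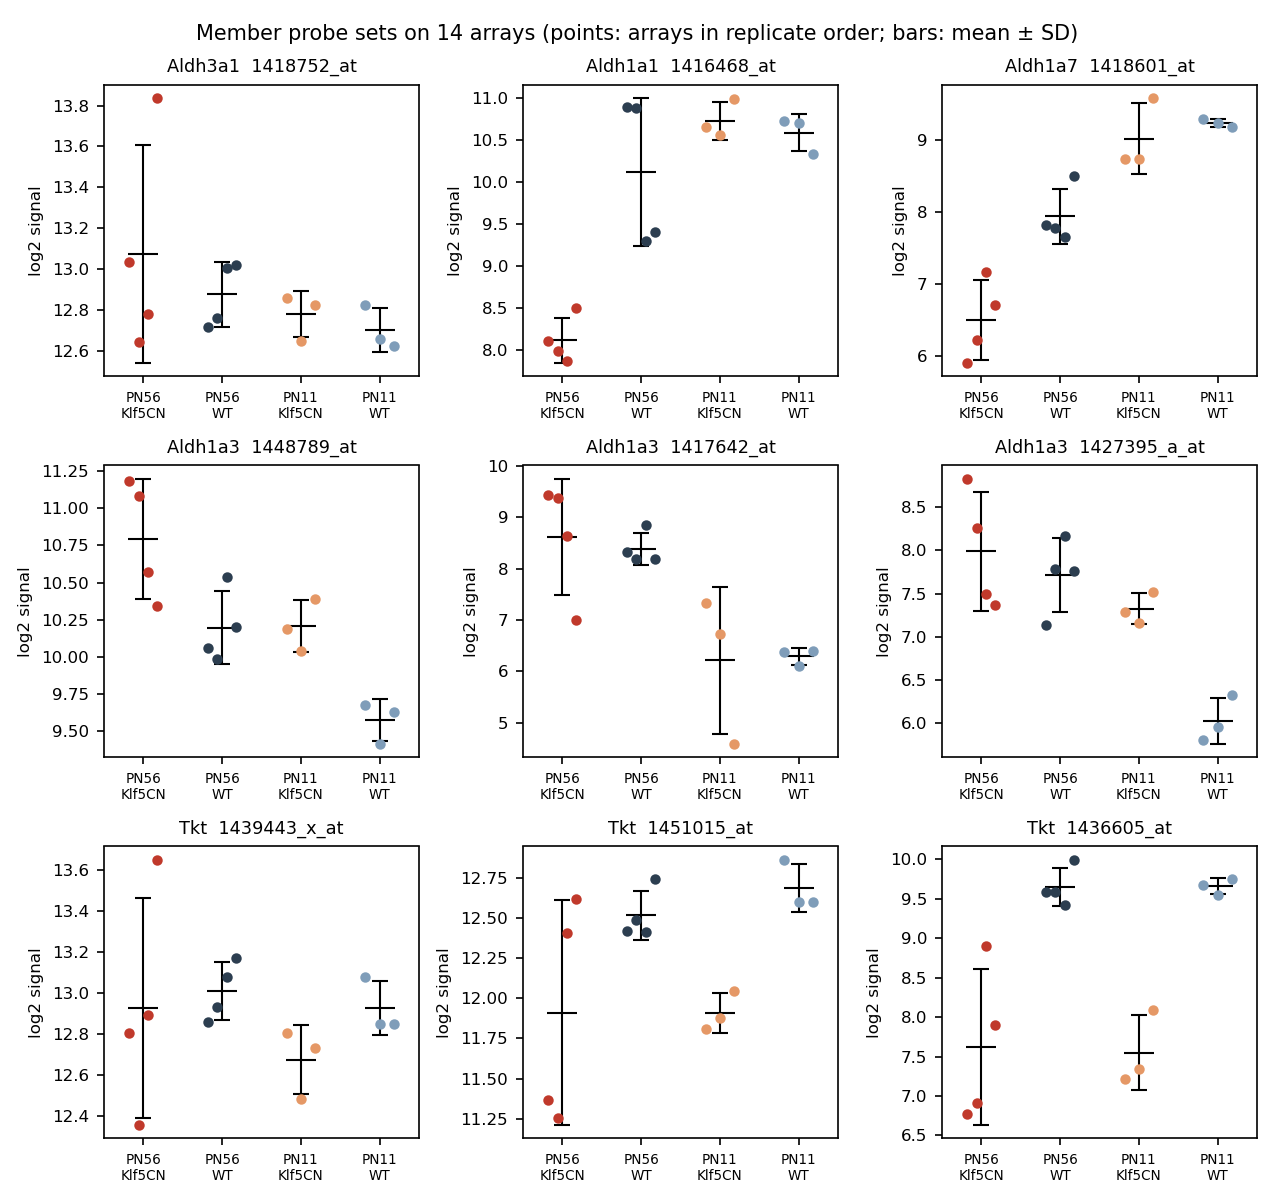
Log2 signal (signals under 10 set to 10) of each of the 9 member probe sets on the 14 arrays, with 4 PN56 Klf5CN, 4 PN56 WT, 3 PN11 Klf5CN and 3 PN11 WT arrays from left to right in each panel. Points are arrays and bars are the mean ± SD. The PN56 Klf5CN points of Aldh1a1 and Aldh1a7 lie below all PN56 WT points, while those of Aldh3a1 overlap the other groups.

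Of the 5 genes, 3 matched RefSeq's promoter table (GRCm38.p6), and the 250 bases before the start site are printed for the members whose signals were lower in Klf5CN corneas. Aldh1a1 and Aldh1a7 are neighbours on chromosome 19 in opposite orientation, with 0 protein-coding genes between them. Of 2 Aldh1a1 start sites in the table, the window of the one at chr19:20601718-20601967 (plus strand) shares a run of 65 identical bases with the Aldh1a7 window at chr19:20727557-20727806 (minus strand), starting at position -94 from the start site in both. This run is in capitals:

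Aldh1a1: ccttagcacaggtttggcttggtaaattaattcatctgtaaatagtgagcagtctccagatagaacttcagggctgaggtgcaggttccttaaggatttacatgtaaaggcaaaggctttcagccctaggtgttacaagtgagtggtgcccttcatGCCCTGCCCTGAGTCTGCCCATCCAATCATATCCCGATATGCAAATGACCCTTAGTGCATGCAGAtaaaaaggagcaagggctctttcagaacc

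Aldh1a7: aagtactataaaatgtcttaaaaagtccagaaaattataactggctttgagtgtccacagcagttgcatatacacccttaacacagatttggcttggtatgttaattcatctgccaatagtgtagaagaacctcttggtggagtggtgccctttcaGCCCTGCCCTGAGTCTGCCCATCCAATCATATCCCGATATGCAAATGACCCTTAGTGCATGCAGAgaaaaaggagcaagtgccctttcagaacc

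Over the whole window, 65.7% of aligned positions were identical. The same alignment to the Aldh1a7 window gave 46.8% for the Tkt window. For the other Aldh1a1 start site it gave 50.9%, with a longest shared run of 8 bases. The Aldh1a1 window printed is the one with the longer shared run. The shared run holds a CCAAT box (CCAAT, 33.8% of all 32851 windows of the table on either strand) at position -72 and an octamer (ATGCAAAT, 1.60% of windows) at position -56. In the Tkt window at chr14:30548881-30549130 (plus strand), capitals mark matches to the GC box (GGGCGG) and the CACCC box (CACCC) on either strand, the kind of GC-rich letters that Sp and Krüppel-like factors bind:

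Tkt: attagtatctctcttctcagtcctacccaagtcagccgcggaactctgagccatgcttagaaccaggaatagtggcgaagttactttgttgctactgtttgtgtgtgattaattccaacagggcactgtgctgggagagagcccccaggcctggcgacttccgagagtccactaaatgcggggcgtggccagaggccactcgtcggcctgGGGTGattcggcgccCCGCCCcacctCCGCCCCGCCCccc

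Tkt had 3 GC box matches, all on the opposite strand and within 25 bases of the start site, the last 2 of which share a base, and 1 CACCC box match. Among all windows 32.7% hold a GC box and 52.0% a CACCC box. Neither printed Aldh1a window holds a GC box, and the Aldh1a7 window holds 1 CACCC box. The motifs were chosen with the sequences in view, and a match describes letters, not binding.

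Aldh1a1, the retinaldehyde-oxidizing cytosolic enzyme, was 4.02-fold lower in PN56 Klf5CN corneas (1416468_at). Its signals were 275, 253, 234 and 360.4 in the PN56 Klf5CN corneas, and 1899.6, 1885, 631 and 679.6 in the PN56 WT corneas. The highest Klf5CN value was below the lowest WT value; at PN56 the arrays of the genotypes were apart in this way, in either direction, for 18.5% of all tested probe sets. The WT arrays split into a bright and a dim pair, with a ratio of the highest to the lowest array of 1.54 in Klf5CN and 3.01 in WT. The log2 difference was -2.01 (SE 0.32, 95% interval -2.68 to -1.33, adjusted p = 0.00081). At PN11 the signals were 1609.5, 1506 and 2034 in Klf5CN and 1699, 1662 and 1291.5 in WT, which overlapped, with a log2 difference of 0.14 (SE 0.37, adjusted p = 0.88). The test that the Klf5CN effect differed between PN56 and PN11 gave -2.15 (SE 0.48) with an adjusted p of 0.072, short of the threshold. Without PN56 WT array 3 or array 4, each of the dim pair, that difference passed (-2.43 and -2.39, adjusted p = 0.028 and 0.043). It did not pass in 25 of 27 alternatives, where the adjusted p reached 0.21. Leaving out 1 array at a time gave values between -2.43 and -1.90. At PN56 the call held without the arrays with high beta-actin ratios (-2.14, adjusted p = 0.0016) and without PN56 Klf5CN array 3 (-1.93, adjusted p = 0.0013).

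Aldh1a7, a rodent paralogue of Aldh1a1 (1418601_at), was lower at PN56 as well. Signals were 59.6, 74.5, 144 and 104 in the PN56 Klf5CN corneas, and 226, 219, 202 and 364 in the PN56 WT corneas. Every Klf5CN array was below every WT array, by a log2 difference of -1.44 (SE 0.27, 95% interval -2.01 to -0.87, adjusted p = 0.0023). The PN56 WT array with the highest Aldh1a7 signal, array 4, belonged to the dim pair for Aldh1a1. At PN11 the signals were 427, 425 and 772 in Klf5CN and 629, 603 and 579.6 in WT. Klf5CN arrays lay on both sides of the narrow WT range, and the difference of -0.22 (SE 0.31, adjusted p = 0.77) did not pass. The 772 is that of array 3, with its high beta-actin ratio, and without this array the PN11 difference was -0.50 (adjusted p = 0.43). The difference between the ages in the Klf5CN effect was -1.23 (SE 0.41, adjusted p = 0.26). Leaving out PN56 Klf5CN array 3, the brightest of its group, gave -1.67 at PN56 (adjusted p = 0.00034), and leaving out the arrays with high beta-actin ratios gave -1.51 (adjusted p = 0.0023).

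Both genes also changed with age. In Klf5CN corneas, Aldh1a1 was 6.15-fold lower at PN56 than at PN11 (log2 -2.62, SE 0.34, adjusted p = 3.6e-05) and Aldh1a7 was 5.75-fold lower (-2.52, SE 0.29, adjusted p = 1.2e-05), with no overlap between the ages, which held in either direction for 38.9% of all tested probe sets. In WT corneas Aldh1a7 was 2.46-fold lower at PN56 (-1.30, SE 0.29, adjusted p = 0.0022), again without overlap (54.1% of all tested probe sets), and Aldh1a1 did not pass (-0.47, SE 0.34, adjusted p = 0.29). These are the same arrays as in the Klf5CN against WT comparisons, so the values are not independent of those above. RNA of other corneal layers changed with age too: all 8 keratocyte markers were lower at PN56 in WT (median -3.11) and 6 of 8 in Klf5CN (median -1.74), and 3 of 5 pigment markers were lower in WT and 5 of 5 in Klf5CN. The part of these cells in the age differences was not tested. Across all 14 arrays, the log2 signals of Aldh1a1 and Aldh1a7 had a Pearson r of 0.832, which the group means shape. Deviations from the group means had an r of -0.08 over the 14 arrays. The genes most like Aldh1a1 over the arrays were Zfp462 (r 0.965), Pgap4 (0.962) and Depdc7 (0.956). Those most like Aldh1a7 were Zfp697 (0.972), E330013P04Rik (0.970) and Cachd1 (0.964). Aldh1a1 and Aldh1a7 have similar sequences, and whether their probe sets read each other's RNA was not tested.

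Of 9 corneal epithelium markers, 0 were higher and 0 lower at PN56 (median 0.23). Epcam alone was higher, and 0 were lower, without the arrays with high beta-actin ratios (1.08, adjusted p = 0.0035). The same held without PN56 Klf5CN array 3 (1.06, adjusted p = 0.0028). With all arrays, Epcam was short of 2-fold (0.95, adjusted p = 0.006). The summed signals of the 9 markers were 40987 to 66293 in PN56 Klf5CN and 37968 to 45179 in PN56 WT. The 66293 was that of PN56 Klf5CN array 4. The limit near the top of the scale, used below for Aldh3a1, was 12351 there and 6433 to 7914 on the other PN56 Klf5CN arrays. Some markers of other cell types were lower at PN56. Of 4 corneal endothelium markers tested, 0 were higher and 2 lower in Klf5CN: the bicarbonate transporter family members Slc4a11 (-1.19, SE 0.23, adjusted p = 0.0028) and Slc4a4 (-1.06, SE 0.20, adjusted p = 0.0024). Their summed signals of 2549 to 3979 in PN56 Klf5CN did not overlap those of 5014 to 6077 in PN56 WT. Of 5 iris and pigment cell markers, 1 was lower, the melanosome enzyme Tyrp1 (-1.14, SE 0.33, adjusted p = 0.032), with summed signals of 448 to 889 in PN56 Klf5CN and 873 to 1757 in PN56 WT. Of 8 keratocyte markers, 2 were higher and 0 lower at PN56, with summed signals of 6381 to 31812 in PN56 Klf5CN and 6467 to 10315 in PN56 WT. PN56 Klf5CN array 3 had the lowest keratocyte sum of its group, and without it 7 of 8 were higher (median 1.41, against 1.01 with it), while without the arrays with high beta-actin ratios 1 was. Between the PN56 WT arrays bright and dim for Aldh1a1, the endothelium sums were 6077 and 5709 in the bright pair and 5014 and 5633 in the dim pair, without overlap. The epithelium sums were apart the other way, at 37968 and 38211 in the bright pair and 45077 and 45179 in the dim pair. The limit near the top of the scale was likewise lower in the bright pair (6644 and 6659) than in the dim pair (7706.5 and 7820). The epithelium sums were not divided by this limit, and the part of array brightness in their differences was not tested. Leukocyte and conjunctiva sums were also higher in the dim pair, without overlap. The pigment sums overlapped, at 1444 and 899.5 in the bright pair and 873 and 1757 in the dim pair, and so did the keratocyte sums. Without the arrays with high beta-actin ratios, 1 endothelium and 2 pigment markers were lower at PN56, and without PN56 Klf5CN array 3, 2 and 0. At PN11 no marker of either list passed. The part of these cell types in the Aldh1a1 and Aldh1a7 results was not tested.

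Aldh3a1 (1418752_at), the detoxifying enzyme that is the chief crystallin of the mouse cornea, showed no difference that passed. Its signals were 8399.6, 6399, 7032 and 14645 in the PN56 Klf5CN corneas, and 6724, 6937, 8217.5 and 8318 in the PN56 WT corneas. The groups overlapped, and PN56 Klf5CN array 4 lay far above the other 13 arrays. The log2 difference was 0.20 at PN56 (SE 0.20, 95% interval -0.23 to 0.63, adjusted p = 0.55), and -0.06 without the arrays with high beta-actin ratios (adjusted p = 0.79). At PN11 the signals were 7437, 6426 and 7249.7 in Klf5CN and 7261, 6454 and 6309 in WT, a difference of 0.08 (SE 0.23, 95% interval -0.42 to 0.57, adjusted p = 0.90). The intervals describe the signal alone, which was near the top of the scale of each array, so they set no limit to a change in the RNA. Between the ages, Aldh3a1 differed by 0.30 in Klf5CN (adjusted p = 0.29) and 0.17 in WT (adjusted p = 0.55).

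The Aldh3a1 signal lay close to the top of the scale. It was 68.6 to 77.4% of the highest signal of its array, and it was 0.90 to 1.19 times the signal that the brightest 0.1% of the probe sets of its array exceeded. That limit was 12351 on PN56 Klf5CN array 4, against 6297 to 7914 on the other arrays. Divided by it, the coefficient of variation of Aldh3a1 over the 14 arrays was 7.0%, and of the undivided signal 27.6%. The divided values were 0.99 to 1.19 in PN56 Klf5CN and 1.01 to 1.07 in PN56 WT, which overlapped, and 0.96 to 1.02 in PN11 Klf5CN and 0.90 to 0.94 in PN11 WT, which did not. The PN56 WT values also lay above the PN11 WT values. For undivided signals, groups were apart in either direction for 29.5% of all tested probe sets at PN11 and for 54.1% between the ages in WT. That share was not computed for divided values, and no test was run on them. The 3 genes whose log2 signals were most like those of Aldh3a1 over the 14 arrays were Tmsb4x, which encodes the actin-binding thymosin beta 4 (r 0.988), the ribosomal protein gene Rps29 (0.979) and beta-actin, Actb (0.978). For deviations from the group means, r was 0.992, 0.988 and 0.993. Probe sets of Tmsb4x and Rps29 were themselves the brightest of some arrays. The part of array brightness in these correlations was not tested. Among the members, Tkt was the most alike (0.821).

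**Figure D2:**
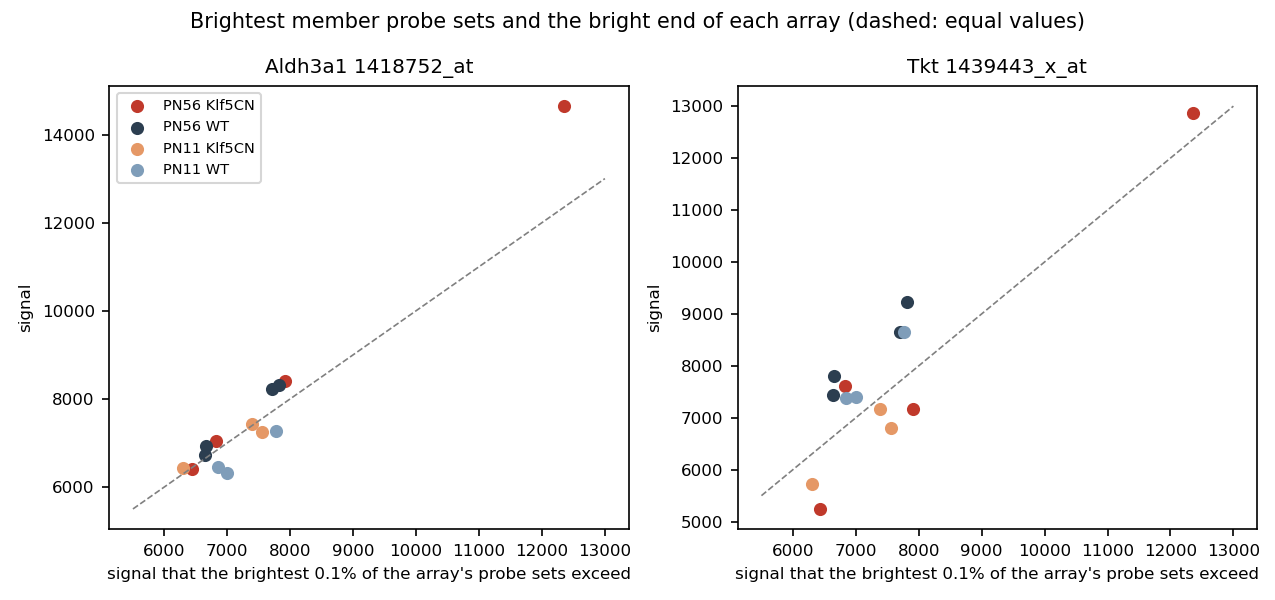
Signal of the Aldh3a1 probe set and of the brightest Tkt probe set on each of 14 arrays (linear scale) against the signal that the brightest 0.1% of the probe sets of that array exceeded, with groups in colour and a dashed line of equal values. Aldh3a1 follows the line, with PN56 Klf5CN array 4 at 14645 and 12351, and for Tkt the 3 PN11 Klf5CN arrays lie below the line and the 3 PN11 WT arrays above it.

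The group means of all 3 Tkt probe sets were lower in Klf5CN corneas at both ages, by different amounts, and only 1 probe set passed. The dimmest, 1436605_at, had signals of 110, 120.2, 480.0 and 239 in the PN56 Klf5CN corneas, and 767, 769.7, 686 and 1021 in the PN56 WT corneas. At PN11 its signals were 148, 163 and 272 in Klf5CN and 819.7, 749 and 861 in WT. The groups did not overlap at either age (29.5% of all tested probe sets had no overlap at PN11, in either direction), and PN56 Klf5CN array 3 was the closest to WT. The log2 difference was -2.02 at PN56 (SE 0.36, adjusted p = 0.0018) and -2.11 at PN11 (SE 0.42, adjusted p = 0.0076), or 4.07-fold and 4.32-fold lower. Without PN56 Klf5CN array 3 the PN56 value was -2.45 (adjusted p = 2.3e-05), and without the arrays with high beta-actin ratios it was -2.12 at PN56 (adjusted p = 0.003) and -2.38 at PN11 (adjusted p = 0.0081). This probe set gave no call with age, at 0.07 in Klf5CN (adjusted p = 0.90) and -0.01 in WT (adjusted p = 0.99).

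The Tkt probe set 1451015_at had signals of 2636, 2447, 5428 and 6278 in the PN56 Klf5CN corneas, and 5473, 5745, 5458 and 6844 in the PN56 WT corneas. Klf5CN arrays 1 and 2 were far below every WT array, array 3 was just below them and array 4 lay within the WT range. Divided by the signal that the brightest 0.1% of each array's probe sets exceeded, the PN56 Klf5CN arrays read 0.333, 0.380, 0.796 and 0.508. The PN56 WT arrays then read 0.708 to 0.875, so array 3 and not array 4 lay within their range. No test was run on the divided values. At PN11 the signals of 1451015_at were 3581, 3758 and 4231 in Klf5CN and 7438.5, 6212 and 6205 in WT, without overlap. The log2 difference was -0.60 at PN56 (SE 0.25, adjusted p = 0.12) and -0.78 at PN11 (SE 0.29, adjusted p = 0.13). Without PN56 Klf5CN array 3 the PN56 adjusted p was 0.042 (-0.77), and without the arrays with high beta-actin ratios it was 0.018 (-0.84), each still short of 2-fold.

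The brightest Tkt probe set, 1439443_x_at, had signals of 7164, 5244, 7611 and 12864 in the PN56 Klf5CN corneas, and 7432, 7807, 8654 and 9225 in the PN56 WT corneas. At PN11 the signals were 7167, 5733 and 6803 in Klf5CN and 8645, 7372.5 and 7392 in WT. The arrays overlapped at PN56 and did not at PN11. The log2 difference was -0.08 at PN56 (SE 0.20, 95% interval -0.52 to 0.35, adjusted p = 0.83) and -0.25 at PN11 (SE 0.23, 95% interval -0.75 to 0.25, adjusted p = 0.61). This probe set, like Aldh3a1, was near the top of the scale, at 58.1 to 84.9% of the highest signal of its array. Divided by the same limit of each array, it was 0.82 to 1.116 in PN56 Klf5CN and 1.119 to 1.18 in PN56 WT, and 0.90 to 0.97 in PN11 Klf5CN and 1.06 to 1.11 in PN11 WT. These divided values did not overlap at either age, at PN56 by a narrow margin. The share of all probe sets apart in this way was not computed, and no test was run on them.

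**Figure D3:**
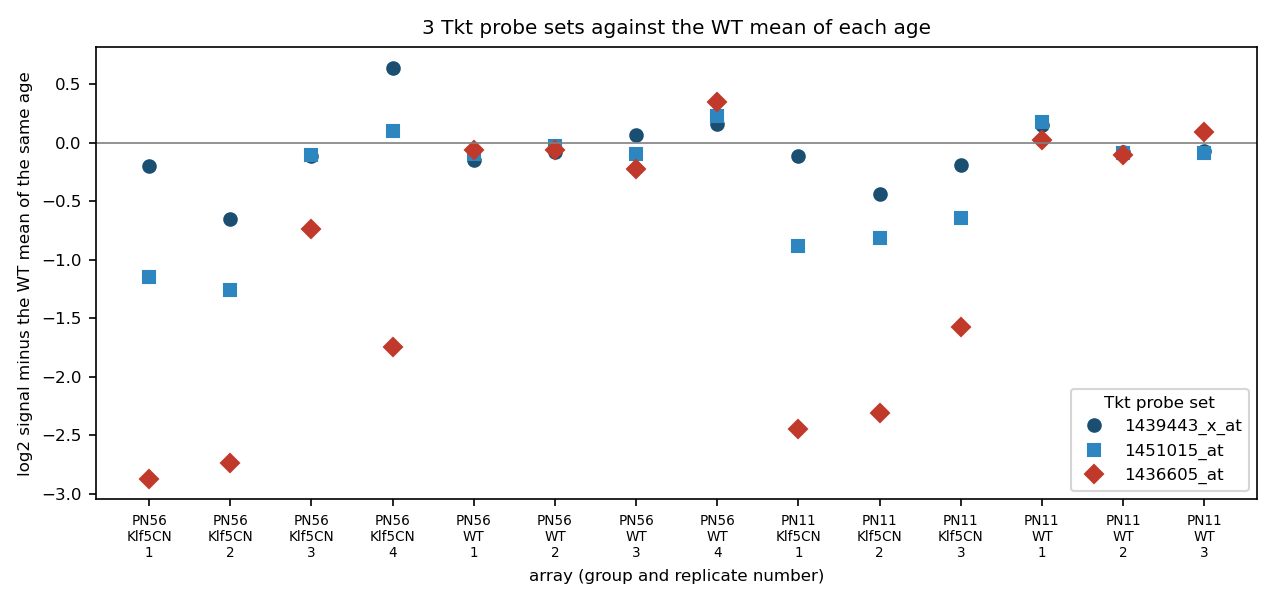
Log2 signal of the 3 Tkt probe sets on each of 14 arrays, minus the mean of the WT arrays of the same age, with Klf5CN arrays left of WT arrays at PN56 and then at PN11. The dimmest probe set, 1436605_at, lies lowest on all 7 Klf5CN arrays, with differences of group means of -2.02 at PN56 and -2.11 at PN11, and 1439443_x_at lies nearest 0 on 5 of the 7.

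The 3 Tkt probe sets tracked each other only in part. Over the 14 arrays, 1451015_at and 1436605_at correlated at r 0.89, 1439443_x_at and 1451015_at at 0.68, and 1439443_x_at and 1436605_at at 0.40. The difference between Klf5CN and WT grew in size as the probe sets became dimmer, at both ages. The position of each probe set in the Tkt transcript was not known here, so differences by transcript end or isoform could not be tested. With all 3 probe sets averaged, Tkt was lower at PN11 (-1.05, adjusted p = 0.03), and at PN56 its difference was short of 2-fold (-0.90, adjusted p = 0.017). The genes most like the brightest probe set were Capns1 (r 0.936), a calpain subunit, and the ribosomal protein genes Rps15 (0.918) and Rps3 (0.917). For deviations from the group means, r was 0.971, 0.950 and 0.946. The part of array brightness in these correlations was not tested.

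Aldh1a3, a retinaldehyde dehydrogenase, was the one member with a probe set that passed as higher in Klf5CN corneas. Its brightest probe set, 1448789_at, had signals of 2327, 2166, 1521 and 1296 in the PN56 Klf5CN corneas, and 1067.5, 1015, 1489 and 1175 in the PN56 WT corneas. At PN11 the signals were 1168, 1054 and 1342.5 in Klf5CN and 818, 682 and 793 in WT. Arrays overlapped at PN56 and not at PN11. The log2 difference was 0.60 at PN56 (SE 0.18, adjusted p = 0.035) and 0.63 at PN11 (SE 0.21, adjusted p = 0.089), about 1.51-fold and 1.55-fold and so below the fold threshold at both ages.

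The probe set 1427395_a_at read 455, 308, 180.0 and 165 in the PN56 Klf5CN corneas, and 140.4, 221, 287 and 217 in the PN56 WT corneas. At PN11 it read 156.5, 144 and 184 in Klf5CN and 55.9, 61.9 and 80.0 in WT. The PN11 groups were separate, with a log2 difference of 1.30 (SE 0.33, 95% interval 0.59 to 2.01, adjusted p = 0.032), and the PN56 groups overlapped (0.28, SE 0.29, adjusted p = 0.57). The PN11 call is a narrow one. It was lost on leaving out any 1 of the 6 PN11 arrays, where the difference stayed between 1.19 and 1.45, and kept without both arrays with high beta-actin ratios (1.20, adjusted p = 0.048).

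The remaining Aldh1a3 probe set, 1417642_at, read 692, 666, 399 and 128 in the PN56 Klf5CN corneas, and 320.3, 291.4, 459 and 291.2 in the PN56 WT corneas. At PN11 it read 159.9, 106 and 24 in Klf5CN and 83.5, 68.4 and 83.9 in WT. The lowest value at each age was that of the array with the high beta-actin ratio. The differences were 0.23 at PN56 (SE 0.54, adjusted p = 0.82) and -0.08 at PN11 (SE 0.63, adjusted p = 0.97), and without those 2 arrays they were 0.77 (adjusted p = 0.031) and 0.73 (adjusted p = 0.11), of the same sign as the brightest probe set.

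Aldh1a3 rose with age on 2 of its 3 probe sets in WT corneas and on 1 in Klf5CN corneas. In WT corneas, 1417642_at was 4.27-fold higher at PN56 than at PN11 (log2 2.09, SE 0.58, adjusted p = 0.0096) and 1427395_a_at was 3.22-fold higher (1.69, SE 0.31, adjusted p = 0.00055), while 1448789_at differed by 0.62 (SE 0.19, adjusted p = 0.017), short of 2-fold. In Klf5CN corneas 1417642_at was 5.29-fold higher at PN56 (2.40, SE 0.58, adjusted p = 0.0045). Leaving out 1 array moved this value between 1.59, without PN11 Klf5CN array 3 and its signal of 24, and 2.96, without PN11 Klf5CN array 1, with the call kept. In the same corneas 1427395_a_at did not pass (0.66, SE 0.31, adjusted p = 0.11). Over the 9 member probe sets, 2 were higher and 1 lower with age in WT, where 10.2% and 12.3% of all tested probe sets were, and 1 was higher and 2 lower in Klf5CN, where 10.4% and 10.6% were. None of the 9 passed the test of a difference between the Klf5CN effects at the 2 ages, which 0.211% (higher) and 0.167% (lower) of all probe sets did (62 and 49). Without PN56 Klf5CN array 3 these counts over all probe sets were 300 and 120. The genes most like 1448789_at over the arrays were Samhd1, a deoxynucleotide hydrolase (r 0.970), the histone chaperone gene Nap1l1 (0.962) and the serine protease inhibitor gene Serpinb1a (0.946). Leukocyte markers were higher in Klf5CN at both ages, with the sums given above. Of 6 conjunctiva markers, 2 were higher in Klf5CN at PN56 (median 1.21; 4 without array 3 and 3 without the arrays with high beta-actin ratios), 1 was lower at PN11, and 4 were higher with age in Klf5CN (median 2.27). Their summed signals were 9126, 7314, 4544 and 4729 in the PN56 Klf5CN corneas and 3032, 2313, 3222 and 4926 in the PN56 WT corneas, with Klf5CN arrays 1 and 2 high, as for 1448789_at. The part of these cells in the Aldh1a3 values was not tested.

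**Figure D4:**
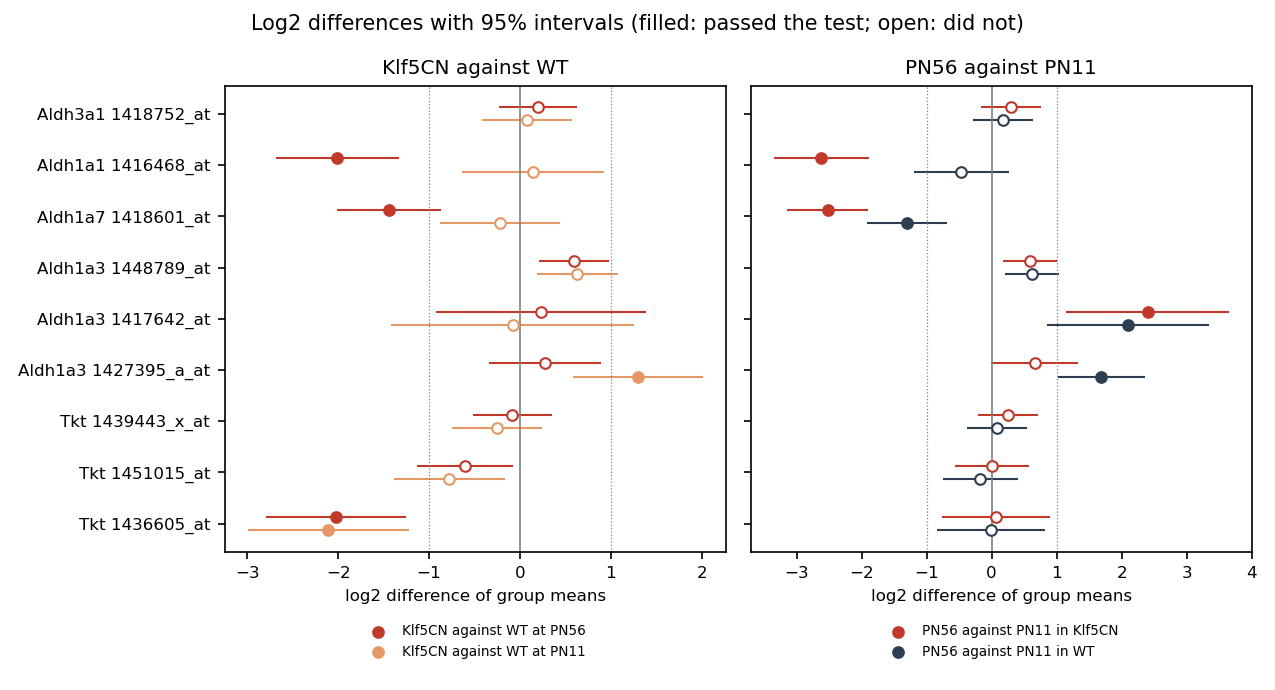
Log2 difference of group means with its 95% interval for the 9 member probe sets, Klf5CN against WT at PN56 and PN11 (left) and PN56 against PN11 in Klf5CN and WT (right). Filled points passed the test and open points did not, and dotted lines mark 2-fold. At PN56 only Aldh1a1, Aldh1a7 and Tkt 1436605_at are filled on the left, all below 0.

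Of the other aldehyde dehydrogenases, 15 of 16 listed were tested. At PN56 1 was higher and 1 lower, where 7.10% and 1.63% of all genes were, and at PN11 0 passed, with median log2 differences of -0.09 and -0.08 against 0.02 and 0.00 over all genes. Aldh6a1, the mitochondrial methylmalonate semialdehyde dehydrogenase, was lower at PN56 (-1.09, SE 0.15, adjusted p = 0.00027), with signals of 206 to 332 in Klf5CN and 478 to 622 in WT. At PN11 it differed by -0.68 (adjusted p = 0.026), short of 2-fold. Aldh18a1, which makes a precursor of proline, was higher at PN56 (1.07, SE 0.25, adjusted p = 0.01), a call that was lost without the arrays with high beta-actin ratios (0.79, short of 2-fold). Aldh1a2, the remaining retinaldehyde dehydrogenase, differed by 0.29 at PN56 (adjusted p = 0.65) and 0.56 at PN11 (adjusted p = 0.52). With age in WT, 2 were higher and 3 lower, where 4.37% and 15.6% of all genes were: Aldh1l1 (1.28) and Aldh3b2 (1.25) rose, and Aldh1a2 (-2.94), Aldh1l2 (-3.15) and Aldh18a1 (-2.35) fell.

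**Figure D5:**
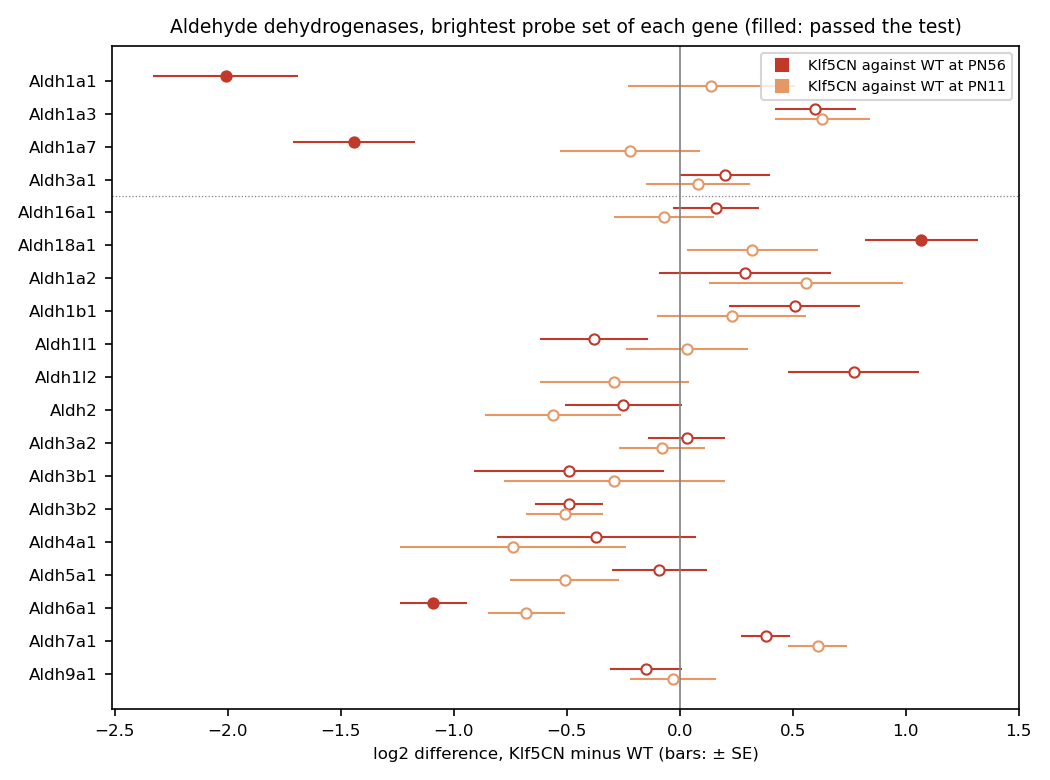
Log2 difference (± SE) between Klf5CN and WT at PN56 and PN11 for 4 member aldehyde dehydrogenases (above the dotted line) and 15 other family members, each read by its brightest probe set. Filled points passed the test: Aldh1a1, Aldh1a7 and Aldh6a1 lower and Aldh18a1 higher, all at PN56.

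Around Tkt, 9 of 12 other pentose phosphate genes were tested. At PN56, 1 was higher and 0 lower: H6pd, the endoplasmic reticulum form of the first enzyme of the pathway (1.51, SE 0.19, adjusted p = 0.0002). At PN11 none passed, and the largest differences were those of the lactonase gene Pgls (-0.77, adjusted p = 0.055) and of the sedoheptulokinase gene Shpk (0.66, adjusted p = 0.32). Taldo1, the transaldolase that shares the non-oxidative branch with transketolase, differed by 0.08 at PN56 (adjusted p = 0.63) and -0.35 at PN11 (adjusted p = 0.07). The list's median was -0.11 at PN56 and 0.04 at PN11.

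Among genes that handle retinoic acid, the product of ALDH1A1 and ALDH1A3, 14 of 18 were tested, and 3 were higher and 0 lower at PN56 and 1 higher at PN11. Stra6, a retinol transporter, had signals of 107 to 193.5 in PN56 Klf5CN and 29.9 to 46.8 in PN56 WT (2.08, SE 0.27, adjusted p = 0.00022), and was also higher at PN11 (2.90, SE 0.31, adjusted p = 0.00012), where 1 of 3 WT arrays was under the floor of 10. The retinoic acid binding proteins Crabp1 (1.69, adjusted p = 0.031) and Crabp2 (1.11, adjusted p = 0.032) were higher at PN56. Crabp1 was under the floor of 10 on 3 of 4 PN56 WT arrays and 1 of 4 PN56 Klf5CN arrays, so the size of its difference depends on the floor. Without the arrays with high beta-actin ratios, Crabp2 was no longer called (1.02, adjusted p = 0.071). Cyp26a1, which degrades retinoic acid, had signals of 20.2 to 27.7 in PN56 Klf5CN and 0.7 to 15.4 in PN56 WT. It was not called, at 0.94 (adjusted p = 0.016), but 2 of 4 WT arrays were under the floor, which sets the size of this difference. The list's median was 0.35 at PN56 and 0.32 at PN11, against 0.02 and 0.00 over all genes.

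Aldh3a1 is a classical target of the Ah receptor, and Nqo1 and Hmox1 are standard targets of the oxidant sensor Nrf2. Of 15 such genes 14 were tested, of which 1 was higher and 1 lower at PN56 and 2 higher and 1 lower at PN11. Nqo1, a quinone reductase, was lower at PN56 (-1.04, SE 0.15, adjusted p = 0.00049) and at PN11 (-1.29, SE 0.18, adjusted p = 0.00082), while Hmox1, heme oxygenase, was higher (1.22, adjusted p = 0.027 at PN56 and 1.65, adjusted p = 0.023 at PN11). Txnrd1, a thioredoxin reductase, was higher at PN11 (1.12, adjusted p = 0.012) and differed by 0.50 at PN56 (adjusted p = 0.11). At PN56, Hmox1 was under the floor of 10 on 2 of 4 WT arrays, and its call was lost without the arrays with high beta-actin ratios (0.94, adjusted p = 0.069) and without PN56 Klf5CN array 3 (1.10, adjusted p = 0.051). The receptor gene Ahr differed by 0.34 at PN56 (adjusted p = 0.076) and 0.82 at PN11 (adjusted p = 0.0039), short of 2-fold.

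Other abundant soluble proteins named as corneal crystallins in some vertebrates did not pass at either age (0 of 5 tested of 7). The largest differences were those of the glycolytic genes Gapdh (0.36, adjusted p = 0.17) and Ldha (0.36, adjusted p = 0.092) at PN56, and Pgk1 (0.53, adjusted p = 0.061) and Ldha (0.24, adjusted p = 0.44) at PN11. Of 12 lens crystallins tested of 13, 0 passed at either age, with a median of -1.25 at PN56 and 0.21 at PN11, and their summed signals varied from array to array: 736 to 6026 in PN56 Klf5CN and 1838 to 7240.5 in PN56 WT. Among 14 transcription factors of the cornea, each read by its brightest probe set, 0 were higher at either age. On this reading 1 was lower at each age: Bnc1, basonuclin, at PN56 (-1.29, SE 0.30, adjusted p = 0.0092) and PN11 (-1.97, SE 0.34, adjusted p = 0.004). Klf5 itself was lower on 1430255_at (-5.47 at PN56 and -5.23 at PN11) and 1451021_a_at (-4.96 and -3.39), and did not pass on 1451739_at (-0.34 and -0.83), which was its brightest probe set over all arrays but the dimmest of the 3 in WT. Pax6, the master regulator of eye development, which activates crystallin genes, differed by -0.44 at PN56 (adjusted p = 0.10) and -0.52 at PN11 (adjusted p = 0.16), and Klf4 by -0.07 (adjusted p = 0.81) and -0.45 (adjusted p = 0.14). The Pax6 values are those of the brightest of its 5 tested probe sets, and the others are not given here. In the paper, Pax6 is listed among the genes most decreased in Klf5CN corneas at PN11.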

How the data were processed

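The authors hybridized labelled corneal RNA to Affymetrix MG 430 2.0 arrays and computed the deposited intensity of each probe set with GCOS 1.4, scaling each array to a trimmed mean of 150 (2% trimmed at each end), which was recomputed here as 150.0 on all 14 arrays. The intensity scale is linear, and both deposited tables agreed in 631414 of 631414 values. The authors' counts of arrays called Present were used, and 3 columns of their pairwise change calls were not. Genes were named from GEO's platform annotation. Here, signals under 10 were set to 10 (29.5% of values), log2 was taken, and probe sets with a signal above 20 on at least 3 arrays were tested (29416). One model of all 4 groups was fitted in limma 3.58.1 under R 4.3.3 (lmFit, eBayes with trend), two-sided, with Benjamini-Hochberg adjustment over all tested probe sets. No member signal was under 10. A gene is read by its brightest tested probe set, and every member probe set is given. Members, gene lists and tests were chosen with earlier results of these data known. Named genes are the members, list genes that passed (at most 6 per list and age, otherwise the 2 largest differences), a few of known relevance, and the 3 genes most like each member. Array medians ran from 25.9 to 35.2 and correlations within groups from 0.939 to 0.983, and the number of arrays limits the precision. The fit was tested on simulated data. Alternatives were other floors, offsets, filters and normalizations, a gene mean, a robust fit, a beta-actin covariate, the methods' rank rule (an exact test at 0.057, or 0.1 at PN11), and leaving out each array; 2 that left out arrays with a high beta-actin ratio were added after seeing the data. Python 3.11.15 and pandas 2.3.3 were used for the tables. Promoter windows are RefSeq's, build GRCm38.p6.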

Additional observations from a re-analysis of the deposited data

How the results depend on the processing

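The members were recomputed under 29 other settings, 14 of which left out 1 array each. The settings that left out both arrays with a high beta-actin ratio, and that combined quantile normalization with leaving out PN56 Klf5CN array 4, were chosen after seeing the data. Of 1267 comparisons with the reported values, 1193 kept their direction and side of the threshold, 10 no longer passed, 8 newly passed and 56 changed sign, each of these 56 in a value that had not passed. Aldh1a1, Aldh1a7 and Tkt 1436605_at at PN56, and Tkt 1436605_at at PN11, kept their calls under every setting run for them. The cause of the changes below was not tested.

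The Aldh1a3 1417642_at difference at PN11 became 0.060 with a floor of 32, 0.011 with 16 added to the signal, 0.945 with the beta-actin ratio as a covariate and 0.735 without both arrays of high ratio. The covariate turned Aldh3a1 (-0.146) and Aldh1a1 (-0.068) at PN11, and 1417642_at in the difference between the ages (-0.172). Without both arrays of high ratio, Aldh3a1 at PN56 was -0.056 and Tkt 1451015_at with age in Klf5CN was -0.165, and the differences between the ages were -0.109 for Aldh3a1, 0.207 for Aldh1a3 1448789_at and -0.045 for Tkt 1439443_x_at. Quantile normalization gave -0.119 for 1451015_at with age in Klf5CN and -0.110 for Aldh3a1 in the difference between the ages. Without PN56 Klf5CN array 4 as well, these were -0.225 and -0.133, Aldh3a1 at PN56 was -0.013, and the differences between the ages were 0.142 for 1448789_at, -0.029 for 1439443_x_at and -0.087 for 1451015_at. With age in WT, Tkt 1436605_at was 0.077 with array medians subtracted, and the mean of the Tkt probe sets was -0.033.

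Leaving out 1 array at a time turned further values that had not passed. At PN11, 1417642_at ran between -0.633 and 0.735. At PN56, Aldh3a1 ran between -0.056 and 0.343, 1417642_at between -0.045 and 0.767, 1427395_a_at between -0.005 and 0.484 and 1439443_x_at between -0.325 and 0.107. With age, 1436605_at ran between -0.128 and 0.063 in WT and between -0.354 and 0.357 in Klf5CN, where 1451015_at ran between -0.234 and 0.219. The difference between the ages ran between -0.132 and 0.266 for Aldh3a1, -0.166 and 0.115 for 1448789_at, -0.506 and 0.862 for 1417642_at, -0.074 and 0.358 for 1439443_x_at, -0.062 and 0.391 for 1451015_at and -0.342 and 0.369 for 1436605_at.

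Among the counts, the 1 higher member probe set at PN11, 1427395_a_at, became 0 with a floor of 32 (adjusted p = 0.063), with no filter (0.096) and with the replicate block (0.095), and was 0 to 1 on leaving out 1 array (0.055 to 0.14 without a PN11 array). With all probe sets of a gene averaged, 1 member gene was lower at PN11 (Tkt) and 1 was higher with age in each genotype. With no minimum fold, 1 member gene and 1 probe set were higher at PN56, 1 gene was higher with age in each genotype and 2 probe sets in Klf5CN. The methods' rank rule left 0 probe sets higher with age in Klf5CN. Counts of members lower in the difference between the ages were 0 to 1 on leaving out 1 array.

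Same-numbered Klf5CN and WT arrays did not deviate together (r of -0.195 to 0.093), so the replicate numbers were not taken as pairs. With a replicate block, the age differences of 1439443_x_at in WT (-0.063) and of 1451015_at (-0.154) and 1436605_at (-0.030) in Klf5CN changed sign, and over all probe sets 16 were higher and 23 lower in the difference between the ages, where 62 and 49 were without it. Leaving out 1 array gave between 18 and 16 (without PN11 WT array 1) and 300 and 120 (without PN56 Klf5CN array 3). Over all probe sets at PN56, where 1668 were higher and 423 lower, a floor of 32 gave 842 and 288, and 16 added to the signal gave 1094 and 244. At PN11, where 815 and 340 were, a floor of 32 gave 511 and 217, and leaving out PN11 WT array 1 gave 416 and 182, array 3 gave 516 and 236 and PN11 Klf5CN array 2 gave 549 and 360. Each scaling moved the median of all probe sets by under 0.1 on the log2 scale. With 3 or 4 arrays a group, changes short of 2-fold often could not be detected.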
